A study of Mus musculus with 7 samples.

Results

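The 5 genes described here move iron, glycine, glutathione or heme-related molecules into, out of or around the mitochondrion were followed from fetal liver red cell progenitors to erythroblasts. They were Slc25a37, Slc25a38, Slc25a39, Abcb10 and Hebp1, chosen by name, and all 5 were listed in the expression table, which gave 5194 genes in all. RNA sequencing and chromatin immunoprecipitation sequencing (ChIP-seq) of the red cell transcription factor EKLF, made by the gene Klf1, came from mice at E13.5. All cells, in every group, carried Klf1 with a hemagglutinin tag, and an antibody against the tag pulled down the factor. Progenitors were sorted as cells without Ter119, an antigen of maturing red cells, with or without CD71, the transferrin receptor, so this group mixes both. Erythroblasts carried both antigens. Of 7 samples, 2 were ChIP libraries, 2 were input libraries without antibody, 1 was a progenitor RNA library and 2 were erythroblast RNA libraries. The cells were untreated primary cells, and the age is that of the embryos. The files used here give 1 expression column and 1 peak list for each stage. No value has a replicate beside it, and no test was made.

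Heme is built in steps that start and end inside mitochondria, and a maturing red cell makes far more of it than other cells. The last enzyme needs iron in the mitochondrial matrix, and the first needs glycine there. Slc25a37 encodes mitoferrin-1, the inner-membrane carrier that brings iron into the mitochondria of red cell precursors. Slc25a38 encodes a mitochondrial glycine carrier, and its loss in people causes a congenital sideroblastic anemia. Slc25a39 encodes a carrier that brings glutathione into mitochondria. Abcb10 encodes an ATP-driven transporter of the inner membrane that red cells need for hemoglobin production. Hebp1 encodes a heme-binding protein of the cytosol, so it is a heme handler and not a membrane carrier.

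The starts of the genes are shown first because EKLF binds DNA boxes of the CACCC kind. The sequences are RefSeq promoters of build GRCm38.p6, each with 250 bases before and 50 after an annotated start, and 4 of the 5 genes matched an entry (Slc25a37 did not). Capitals mark matches to CCNCNCCC, a simplified EKLF box, on either strand. They lie on chromosome 9 from 120110132 to 120110431 on the plus strand for Slc25a38, and on the minus strand for the others: on chromosome 11 from 102407468 to 102407767 for Slc25a39, on chromosome 8 from 123983073 to 123983372 for Abcb10, and on chromosome 6 from 135168166 to 135168465 for Hebp1.
Slc25a38: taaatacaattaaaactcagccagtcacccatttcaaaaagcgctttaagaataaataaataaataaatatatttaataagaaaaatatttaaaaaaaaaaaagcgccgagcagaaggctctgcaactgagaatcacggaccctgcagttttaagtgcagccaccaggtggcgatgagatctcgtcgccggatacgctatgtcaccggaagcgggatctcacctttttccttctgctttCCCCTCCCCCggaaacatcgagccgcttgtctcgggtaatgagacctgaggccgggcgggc
Slc25a39: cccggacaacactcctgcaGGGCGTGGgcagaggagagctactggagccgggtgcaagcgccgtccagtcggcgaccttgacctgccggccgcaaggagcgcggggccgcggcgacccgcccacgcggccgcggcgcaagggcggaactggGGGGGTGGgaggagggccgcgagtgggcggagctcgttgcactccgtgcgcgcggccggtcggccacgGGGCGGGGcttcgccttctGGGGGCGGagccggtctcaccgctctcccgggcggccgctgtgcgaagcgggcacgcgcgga
Abcb10: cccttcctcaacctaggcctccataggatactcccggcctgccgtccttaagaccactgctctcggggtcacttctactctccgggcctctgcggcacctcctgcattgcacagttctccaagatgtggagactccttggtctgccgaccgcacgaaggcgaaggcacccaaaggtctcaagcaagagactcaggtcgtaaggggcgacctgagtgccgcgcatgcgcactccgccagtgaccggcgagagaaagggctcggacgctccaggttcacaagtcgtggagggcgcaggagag
Hebp1: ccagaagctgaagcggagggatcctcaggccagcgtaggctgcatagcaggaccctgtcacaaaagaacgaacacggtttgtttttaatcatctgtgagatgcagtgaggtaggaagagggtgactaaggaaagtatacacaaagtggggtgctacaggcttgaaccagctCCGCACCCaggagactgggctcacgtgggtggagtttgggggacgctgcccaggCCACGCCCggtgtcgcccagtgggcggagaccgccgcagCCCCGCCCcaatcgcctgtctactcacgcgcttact

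The promoters differed in how many such boxes they held. Slc25a39 had 4 matches, all on the strand opposite to the one shown, with first bases at -231, -99, -31 and -12 from the start. Hebp1 had 3, at -79, -25 and 15. Slc25a38 had 2, at -11 and -9, which overlap and form 1 run of capitals. Abcb10 had 0. At least 1 match is common: 49.5% of all 32851 promoters of this length held one, as did 68.6% of the promoters of genes in the expression table. At least 3 matches were found in 19.1% of all promoters and 29.3% of those of the table's genes. None of the 4 promoters held the usual words of the GATA family of factors on either strand, searched as AGATAA with its variant AGATAG and also as TGATAA with its variant TGATAG. At least 1 of these words was found in 29.8% of all promoters and in 17.5% of those of the table's genes. Base composition differed as well, from 45.3% G and C in Slc25a38 to 77.3% in Slc25a39, against a median of 52.7% over all promoters and 61.7% over those of the table's genes. These matches are letters in a window and not sites. The peaks below are in build mm9 and these starts in GRCm38.p6, so a peak cannot be placed on a printed promoter here.

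The comparison of RNA asked which of these genes differ between the stages. All 5 were higher in erythroblasts, and 4 of them by more than 14-fold in summed exon coverage. The table holds a coverage signal for each coding exon, listed where it is at least 0.8 in both columns, and a gene's value is the sum over its listed exons. Because exon lengths are not divided out, levels are compared between stages for 1 gene and not between genes. The words rose and fell are kept for a log2((erythroblasts + 1) / (progenitors + 1)) of at least 1 or at most -1, a 2-fold difference. By that rule 5 of the 5 genes rose and 0 fell, while 15.3% of all genes rose and 13.2% fell. At least 4-fold rises were seen in 4 of the 5 and in 3.27% of all genes. The 5 genes were brought together with results of these data known, so these counts describe them and do not test them.

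Slc25a37, the iron importer, had a summed progenitor coverage of 6.42 and an erythroblast coverage of 196, a log2 difference of 4.73. Its 2 listed exons had 1.51 and 4.91 in progenitors and 55.9 and 139.9 in erythroblasts, counted from the 5' end. Both exons were therefore far higher in erythroblasts, by 37.2-fold and 28.5-fold. Of all genes, 7 had a larger difference. The related iron carrier Slc25a28, mitoferrin-2, which serves many tissues, had 13.3 and 7.96 on 1 listed exon, and its log2 difference of -0.67 did not pass the rule. The 2 mitoferrin genes thus had differences of opposite sign, and only that of Slc25a37 passed 2-fold.

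Slc25a38, the glycine carrier, had a summed coverage of 4.12 in progenitors against 58.3 in erythroblasts, which is a log2 difference of 3.53. Its 3 listed exons had 1.11, 1.46 and 1.55 in progenitors and 12.7, 20.2 and 25.4 in erythroblasts. Every exon was at least 11.4-fold higher, and the fold grew from the 5' to the 3' exon, from 11.4 through 13.8 to 16.4. Of all genes, 24 had a larger difference.

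Slc25a39, the glutathione carrier, rose the least, from a summed coverage of 47.7 to one of 123, a log2 difference of 1.35. Of its 10 listed exons 9 were higher in erythroblasts. The exon that was not, listed exon 5 counted from the 5' end, had 10.8 in progenitors and 10.3 in erythroblasts. The exons differed more in fold than those of any other of the 5 genes, with an SD of 0.81 of the log2 ratios over exons. The exon nearest the 5' end went from 1.58 to 11.9, a 7.55-fold difference, and listed exon 4 from 12.6 to 26.7, a 2.12-fold difference. Listed exons 4, 5 and 6 together held 67.2% of the gene's progenitor coverage and 48.7% of its erythroblast coverage. Over these 3 exons the difference was 1.88-fold, and over the other 7 it was 4.04-fold. The 3 exons were grouped after their values were seen. Of all genes, 473 (9.11%) had a larger difference than Slc25a39.

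Abcb10, the ATP-driven transporter, had a summed coverage of 14.1 in progenitors against 463 in erythroblasts. Its log2 difference of 4.94 was the largest of the 5 at a pseudocount of 1, though Hebp1 had the larger one at 0.1. All 7 listed exons were higher in erythroblasts. In progenitors they ran from 0.877 to 3.13 and in erythroblasts from 38.3 to 139, so the lowest erythroblast exon was above the highest progenitor exon. The fold per exon ran from 23.0 to 52.8, and the exon nearest the 3' end had the largest. Of all genes, 4 had a larger difference than Abcb10.

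Hebp1, the heme-binding protein, had a summed coverage of 3.99 in progenitor cells and 145 in erythroblast cells, a log2 difference of 4.88. From the 5' end its 3 listed exons had 0.922, 2.13 and 0.935 in progenitors and 23.4, 63.0 and 59.0 in erythroblasts. The fold again grew toward the 3' end, from 25.4 through 29.6 to 63.1. Of all genes, 5 had a larger difference. The differences of Abcb10, Hebp1 and Slc25a37 lay within 0.21 of each other on the log2 scale. The SD of the exon log2 ratios was 0.48 within Abcb10 and 0.70 within Hebp1, which does not measure a spread between libraries. At a pseudocount of 0.1 Hebp1 had 5.15 and Abcb10 5.03, so the order turned. At a pseudocount of 5 Slc25a37 had 4.14 and Hebp1 4.06. No order among these 3 is therefore read. Slc25a39 lay apart from the other 4 genes.

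**Figure D1:**
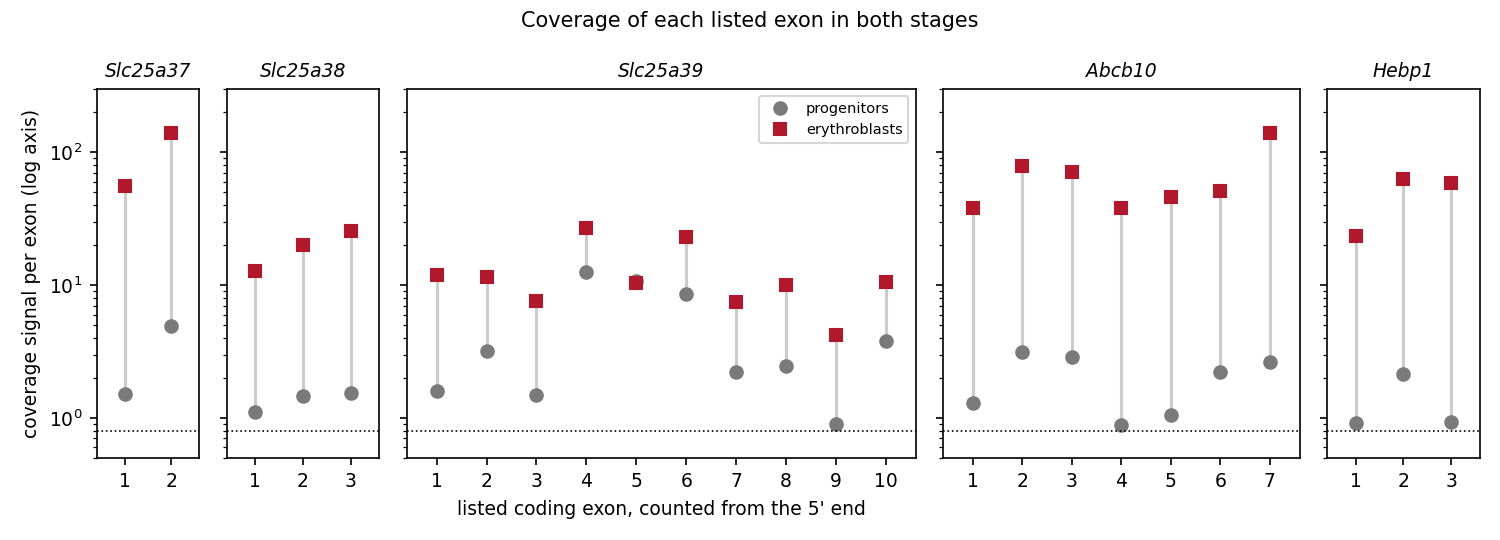
Coverage signal of each listed coding exon (y axis, log scale) against its place counted from the 5' end (x axis) for the 5 genes, with progenitors as grey circles and erythroblasts as red squares joined by a line, and the listing limit of 0.8 dotted. Of 25 exons 24 are higher in erythroblasts, and the lowest progenitor values, in Slc25a39, Abcb10 and Hebp1, lie close to the limit.

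The low progenitor values set a limit on these folds. Of the 25 listed exons of the 5 genes 12 had less than 2 in progenitors, near the listing limit of 0.8, and 0 had less than 2 in erythroblasts. The exon numbers skip 10 places in all, 6 of them in Abcb10, and an exon under the limit in either stage enters no sum. A gene without any exon that reaches the limit in both stages is absent from the ranks among all genes. The depth behind each value is unknown, since the columns were scaled by the authors. In bulk RNA, fewer cells of a type and less RNA per cell cannot be told apart. Of 8 erythroid markers 6 were listed and 4 of these rose. Of the markers of macrophages, hepatocytes, granulocytes and mast cells, megakaryocytes, endothelium and lymphocytes only 1 was listed, the megakaryocyte gene Gp1ba, with 9.35 in progenitors and 31.6 in erythroblasts. The part of Gp1ba in the results was not tested. A marker under the limit in either stage is not listed, so the missing markers do not show that a cell type is absent.

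The other genes of the pathway give the setting. Of 8 enzymes of heme synthesis 6 were listed, and Alas2 and Uros had no listed exon. Of the 6 listed 5 rose and 0 fell, with a median log2 difference of 2.11, against 0.03 over all genes. Alad, which joins the first precursors into a pyrrole ring, went from 50.5 to 642, a log2 difference of 3.64. Cpox, a late enzyme of the intermembrane space, rose least of the 5, from 281 to 755, a log2 difference of 1.42. Fech did not pass the rule, with 169 in progenitors and 279 in erythroblasts. Its log2 difference was 0.72, and 9 of its 11 listed exons were higher in erythroblasts. The medians of 4.73 for the 5 transport and heme-binding genes and of 2.11 for the enzymes both lay above the median of all genes.

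Further members of the 2 protein families are given beside the 15.3% of all genes that rose and the 13.2% that fell. Of 11 further mitochondrial carrier genes listed 2 rose, 0 fell and 9 did neither, with a median log2 difference of -0.18. Those that rose were Slc25a51, which encodes the mitochondrial NAD carrier (11.4 and 36.4, log2 difference 1.60, 1 exon), and Slc25a11, the oxoglutarate carrier (31.6 and 88.3, log2 difference 1.45, 7 exons). Slc25a37 and Slc25a38 had larger differences than every one of these 11, while the order of Slc25a39 against the 2 that rose depended on the measure. By summed coverage its difference of 1.35 was the smaller, and by the median of exon log2 ratios its 1.79 was above the 1.73 of Slc25a11 and the 1.68 of Slc25a51. Of 9 further ABC transporter genes listed 3 rose and 1 fell, with a median of 0.56. Abcb6, a porphyrin transporter, rose the most, from 16.3 to 90.8, a log2 difference of 2.41 with all 8 exons higher. Abcf3, an ABC protein without a membrane domain, went from 5.57 to 15.2. Abcb8, another ABC protein of the mitochondrial inner membrane, fell from 14.8 to 5.81, a log2 difference of -1.21, though only 2 of its 3 listed exons were lower.

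Other genes that handle heme and iron are also set beside all genes, of which 15.3% rose and 13.2% fell. Of 13 listed genes of heme handling 5 rose and 3 fell, with a median log2 difference of 0.41. Abcb6 and Abcg2 are counted here and among the ABC transporters, and of the 11 others 4 rose and 3 fell. Bach1, a repressor that heme inactivates, rose from 1.99 to 48.7, a log2 difference of 4.06. Tmem14c, an inner-membrane protein needed for heme synthesis, rose from 6.63 to 87.3, a log2 difference of 3.53. Pgrmc1, a heme-binding membrane protein, fell from 29.5 to 3.75, a log2 difference of -2.68. Of 11 listed genes of iron uptake, storage and regulation 3 rose and 1 fell, with a median of -0.21. Tfrc, the transferrin receptor, had 21.3 and 148, Ncoa4, the receptor that sends ferritin to lysosomes, had 34.1 and 99.6, and Tfr2, the second transferrin receptor, had 60.6 and 4.54.

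The lists of glutathione supply and iron-sulfur assembly held members of both directions. Of 8 listed genes of glutathione and glycine supply other than Slc25a38, 2 rose and 1 fell, with a median log2 difference of -0.0015. Slc25a28 is 1 of these 8 and is also counted among the carriers, and without it the median of the other 7 was 0.38. Over all genes 15.3% rose and 13.2% fell, so 28.5% passed the rule in either direction. Members of both directions therefore do not by themselves set a list apart. Gpx4, a glutathione peroxidase that protects membranes, went from 31.6 to 72.8 and Gclm, a subunit of the first enzyme of glutathione synthesis, from 54.7 to 123. Gsr, which recycles glutathione, fell from 26.3 to 11.5. Of 16 listed genes of iron-sulfur assembly 2 rose and 1 fell, with a median of 0.23. Ciao2b, of the cytosolic assembly machinery, went from 10.8 to 28.1, Iscu, the scaffold on which clusters form, from 6.76 to 17.9, and Hspa9, a mitochondrial chaperone, from 159.7 to 62.6.

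**Figure D2:**
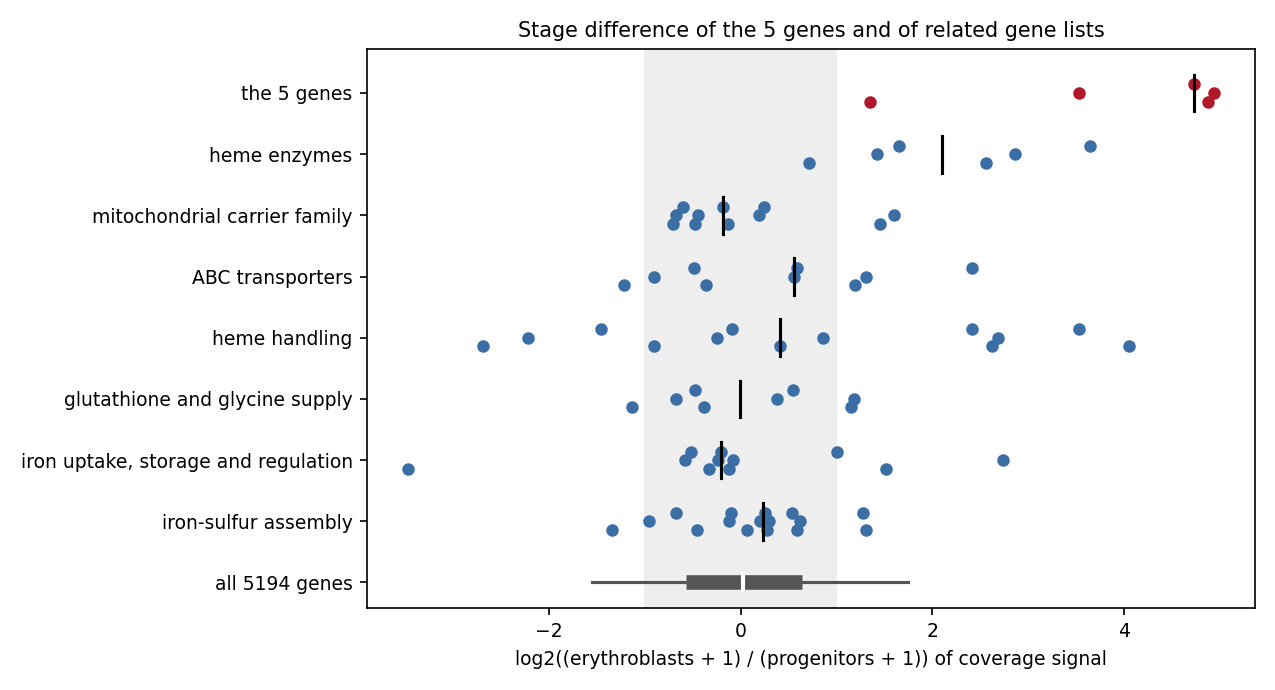
Log2 difference in coverage between erythroblasts and progenitors (x axis, pseudocount 1) for the 5 genes in red, for 7 related lists without those 5 genes in blue, and for all 5194 genes as a bar (thick from percentile 25 to 75, thin from percentile 5 to 95, white mark at the median). Black lines are medians, and grey shading marks differences under 2-fold: the 5 genes lie between 1.35 and 4.94 and most other carrier and iron genes lie in the shading.

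Genes with the nearest differences were sought among 2726 genes with at least 3 listed exons and at least 5 in the higher stage. The likeness is the gap between log2 differences over only 2 columns. For Slc25a38 the nearest genes were Tmem14c (log2 difference 3.53) and the heme enzyme gene Alad (3.64). For Slc25a37 they were Hebp1 and Abcb10, and Hebp1 and Abcb10 were nearest to each other. Next after them among the genes searched came Gata1, the red cell master regulator, at 6.05, more than 1.1 above both. Genes with fewer listed exons were left out. Those that lie nearer to Hebp1 and Abcb10 than Gata1 include Slc25a37 itself, Cpeb4 (4.97, 1 exon) and Atp1b2 (5.36, 2 exons). Arhgap23 (4.71, 1 exon), Chsy1 (4.59, 1 exon) and Bach1 (4.06, 2 exons) are further such genes. Arhgap23 also lies nearer to Slc25a37 (4.73) than Hebp1 or Abcb10 does. For Slc25a39, in the crowded middle of the range, the nearest genes searched were Wbp4 (1.35) and Psmd4 (1.35).

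The second comparison asked where EKLF peaks lay around these genes in each stage. Within 200 kb of their listed exon starts the progenitor list held 19 peaks and the erythroblast list 54. All 5 genes had an erythroblast peak in that window and 4 had a progenitor peak, where 98.7% and 91.7% of all genes did. All 5 had more erythroblast than progenitor peaks, as did 85.2% of all genes, and the erythroblast list is itself 2.63 times as long. These shares are near the background, so the presence of peaks in this window does not set the 5 genes apart. Within 5 kb, 4 of the 5 had an erythroblast peak and 1 a progenitor peak, against 45.9% and 30.7% of all genes. Of the 19 progenitor peaks 16 (84.2%) shared at least 1 bp with an erythroblast peak, and of the 54 erythroblast peaks 14 (25.9%) overlapped a progenitor peak. Over the whole lists these shares were 80.9% and 30.9%. Fold enrichments come from the authors' peak lists and are compared only inside a list. Their medians were 7.03 among progenitor peaks and 9.31 among erythroblast peaks.

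**Figure D3:**
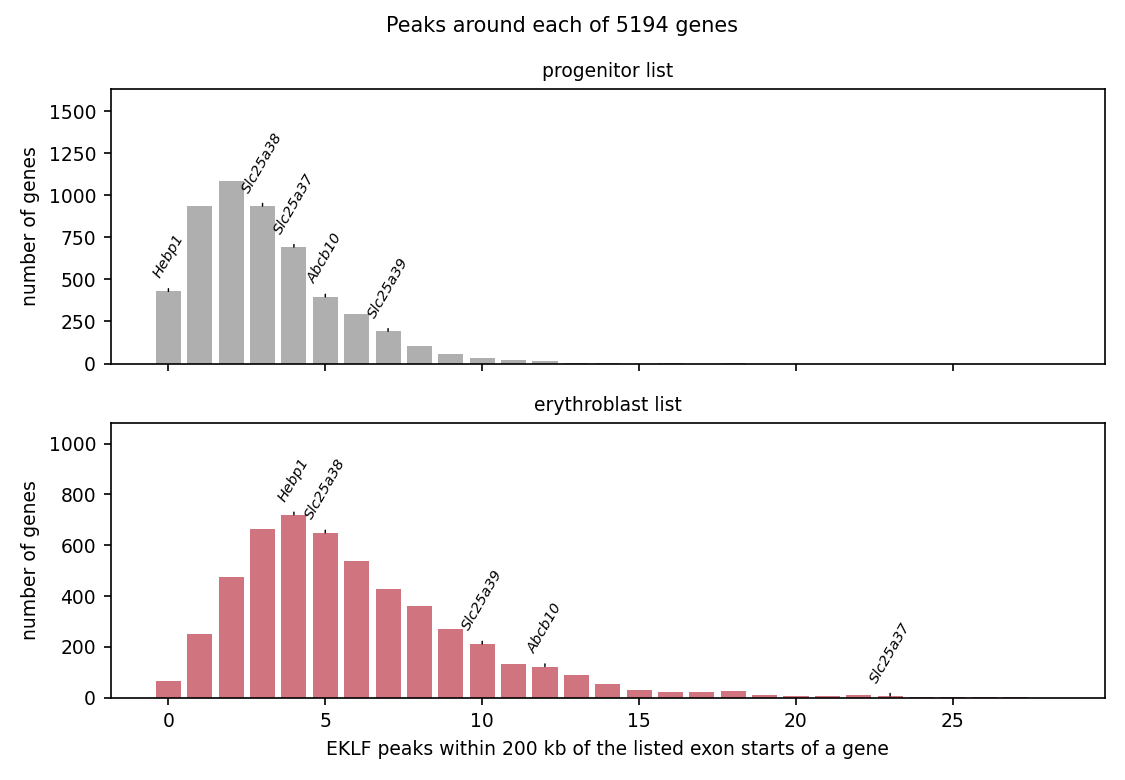
Number of genes (y axis) with each number of EKLF peaks within 200 kb of their listed exon starts (x axis), for the progenitor list above and the erythroblast list below, with the 5 genes marked. Slc25a37 has 23 erythroblast peaks and lies in the far right tail, while Slc25a38 and Hebp1 lie near the middle at 5 and 4.

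Around Slc25a37 the erythroblast list was unusually dense, a trait of the locus that the neighbour Entpd4 and the nearby gene R3hcc1 share. It held 23 peaks within 200 kb of Slc25a37, a number that 23 of the 5194 genes (0.443%) reached. The progenitor list held 4, an ordinary number that 34.8% of genes reached. The 200 kb window was set with distal peaks at this locus known, so these shares describe the locus and do not test it. Within 5, 50 and 100 kb Slc25a37 had 3, 4 and 10 erythroblast peaks. Within 200 kb the erythroblast peaks covered 129 kb, and the progenitor peaks 7.51 kb. Their width-weighted mean enrichments, 21.2 and 5.61, come from different lists and are not compared with each other. Only Entpd4, a neighbour that shares much of this window, had more covered length in erythroblasts, 141 kb, and R3hcc1 came next with 128 kb. Of the 23 peaks at Slc25a37 21 overlapped no progenitor peak, and 20 lay on its 5' side. Entpd4 had 27 erythroblast peaks, 24 of them without a progenitor partner, and R3hcc1 had 22 without a partner.

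The largest of them was a single peak of 28.1 kb on chromosome 14 from 69876263 to 69904358 (build mm9 here and below), 8.81 kb on the 5' side of the nearest listed exon start of Slc25a37. It was the sixth widest of 19353 erythroblast peaks and had an enrichment of 42.2, rank 58 by enrichment in that list. The progenitor list had 3 small peaks inside it, from 69887635 to 69889049, from 69890734 to 69892219 and from 69901697 to 69904110. Their enrichments were 4.99, 6.04 and 5.88, all under the median of the progenitor list, and together they made up 18.9% of the wide peak's length. A further 6.61 kb erythroblast peak, from 69857643 to 69864249, covered the start of the exon nearest the 3' end with an enrichment of 17.03. From there to the end of the wide peak, 4 erythroblast peaks covered 91.5% of 46.7 kb, and progenitor peaks 11.4%.

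A second dense stretch lay farther out on the 5' side, from 70007714 to 70079240. There 8 erythroblast peaks covered 93.2% of 71.5 kb, and no progenitor peak was listed. Of these 8 peaks 3 were over 10 kb wide, at 11.1, 17.3 and 21.4 kb, with enrichments of 24.1, 23.3 and 14.6. Only 29 peaks of the whole erythroblast list (0.150%) exceeded 10 kb, a width set after the values were seen, and 4 of them lay in the Slc25a37 window. The windows of Entpd4 and R3hcc1 also held 4 each. This distal stretch is nearer to the listed exons of other genes. The 11.1 kb peak lay 140.3 kb from Slc25a37 and 28.02 kb from Entpd4, and the 21.4 kb peak lay 24.5 kb from R3hcc1. Entpd4, which encodes a nucleotide-cleaving enzyme of the Golgi and lysosomes, had 3.52 in progenitors and 2.51 in erythroblasts on 1 listed exon, under the 2-fold rule. Of the 23 erythroblast peaks 6 had Slc25a37 as the nearest listed gene. Which gene a distal peak acts on was not tested.

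**Figure D4:**
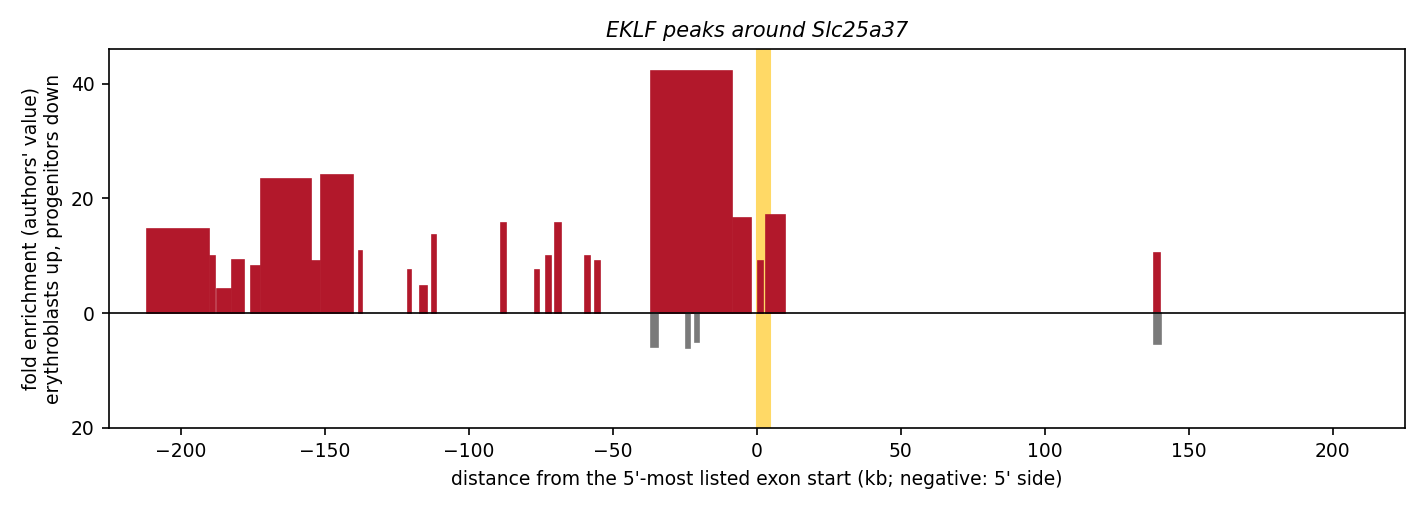
EKLF peaks around Slc25a37, drawn as boxes as wide as the peak at their distance from the 5'-most listed exon start (x axis, kb, 5' side to the left), with the authors' fold enrichment (y axis) of erythroblast peaks upward in red and of progenitor peaks downward in grey, and the span of the listed exons in yellow. The 28.1 kb erythroblast peak lies over 3 small progenitor peaks, and the dense stretch at the far left has erythroblast peaks alone.

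At Abcb10 the peaks at both ends of the gene were found in both lists. It had 12 erythroblast peaks and 5 progenitor peaks within 200 kb, and all 5 progenitor peaks overlapped an erythroblast peak. At the 5' end a progenitor peak on chromosome 8 from 126505638 to 126507939 and an erythroblast peak from 126505546 to 126507809 covered the start of the same listed exon, with enrichments of 8.35 and 20.8. Both values were above the median of their own list. At the 3' end, 3.80 kb past the last listed exon start, an erythroblast peak from 126472047 to 126474412 had the same enrichment of 20.8, and its progenitor partner from 126472145 to 126474283 had 6.05, below the median of the progenitor list. The 3' pair also covered a listed exon start of the neighbour Nup133, a nuclear pore gene. An erythroblast peak from 126502281 to 126503652, between listed exon starts, had an enrichment of 9.92 and no progenitor partner.

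Slc25a38 also had its nearest peaks in both lists. On its 5' side an erythroblast peak on chromosome 9 from 120018902 to 120020631, with an enrichment of 21.5, overlapped a progenitor peak from 120018894 to 120020488, with 6.82. The former lay 4.99 kb from the first listed exon start and the latter 5.13 kb. A 5 kb window therefore gives this gene an erythroblast peak alone, although the peaks overlap by 99.5% of the progenitor peak. On the 3' side, peaks from 120035737 to 120037370 in erythroblasts and from 120035996 to 120037816 in progenitors had enrichments of 24.0 and 14.1. The progenitor value was the highest at any of the 5 genes, reached there by no other progenitor peak in the windows. In the order of the RefSeq annotation of GRCm38.p6 the next protein-coding gene on that side is Rpsa, a ribosomal protein gene. In all, Slc25a38 had 5 erythroblast and 3 progenitor peaks within 200 kb, numbers that 58.1% and 52.8% of genes reached.

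Slc25a39 had its strongest near peak in erythroblasts alone. It lay at the 5' end, on chromosome 11 from 102267658 to 102270794, covered 2 listed exon starts and had an enrichment of 25.7, which 1.29% of the erythroblast list reached. No progenitor peak overlapped it, and the nearest progenitor peak, from 102254335 to 102255676, lay 9.06 kb away on the 3' side with an enrichment of 7.28. A 20.03 kb erythroblast peak from 102207595 to 102227624 lay 37.1 kb off on the 3' side, with an enrichment of 43.8. In the order of the same annotation that side holds Rundc3a, the noncoding RNA gene Bloodlinc and Slc4a1, the red cell anion exchanger. Of the 7 progenitor peaks in the window 4 overlapped an erythroblast peak, so 3 of 7 were found in progenitors alone. These 3 were the only progenitor peaks without a partner among the 19 at the 5 genes. As many unshared progenitor peaks were found for 2.91% of the table's genes.

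Hebp1 had no progenitor peak within 200 kb, which was true of 429 of the 5194 genes (8.26%). It had 4 erythroblast peaks there, none within 5 kb, and 106 genes (2.04%) likewise had at least 4 erythroblast peaks and no progenitor peak. The nearest, on chromosome 6 from 135117263 to 135119088, lay 12.1 kb on the 5' side with an enrichment of 14.9. The strongest, from 135147526 to 135148761, lay 42.4 kb on the 5' side with an enrichment of 20.7, and was nearer to the gene Fam234b (10.3 kb). The others, from 135236798 to 135238467 and from 134933256 to 134934695, had 12.4 and 11.8. All 4 were above the median of the erythroblast list.

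**Figure D5:**
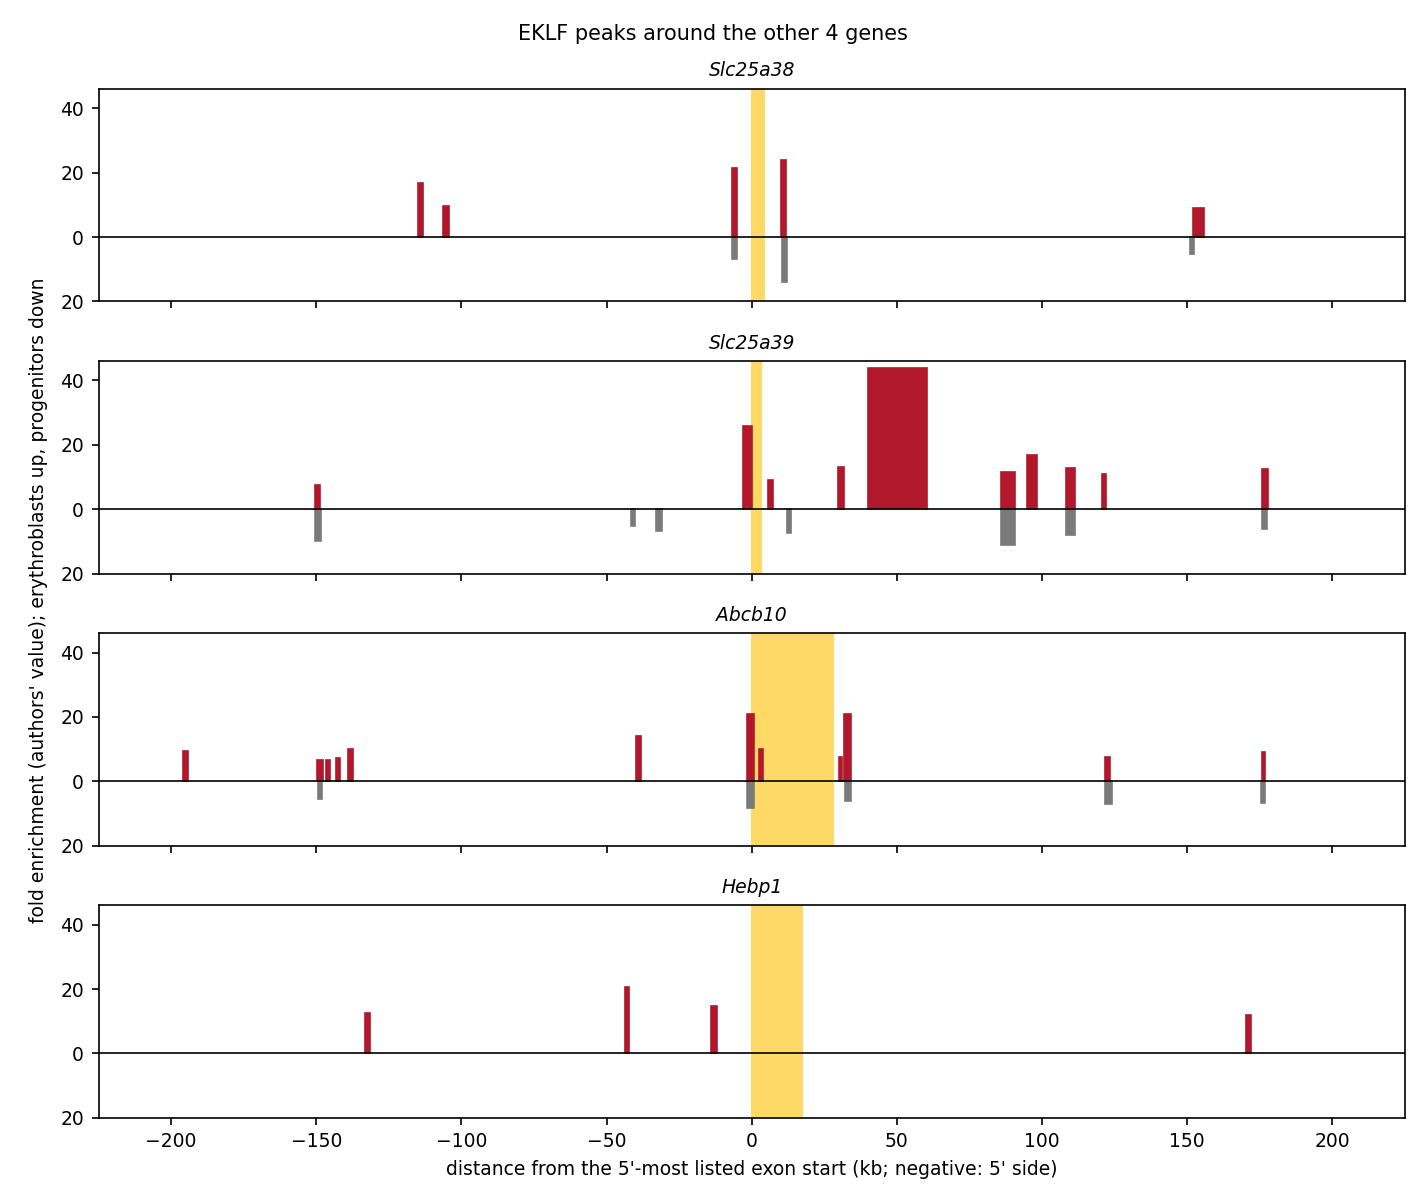
EKLF peaks around Slc25a38, Slc25a39, Abcb10 and Hebp1, drawn as for Slc25a37 with distance from the 5'-most listed exon start in kb (x axis) and the authors' fold enrichment (y axis), erythroblasts upward in red and progenitors downward in grey. Paired boxes stand at both ends of Slc25a38 and Abcb10, Slc25a39 has a strong 5' erythroblast peak with no grey partner, and Hebp1 has no grey box.

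Size of the rise is set here beside the peak counts. Abcb10, Slc25a37 and Hebp1 had nearly equal log2 differences of 4.94, 4.73 and 4.88. Within 5 kb they had 4, 3 and 0 erythroblast peaks and 2, 0 and 0 progenitor peaks. Within 200 kb they had 12, 23 and 4 erythroblast peaks. The 28.1 kb peak of Slc25a37, 8.81 kb away, falls outside the narrow window. Slc25a38, with a log2 difference of 3.53, had 1 erythroblast and 0 progenitor peaks within 5 kb. Slc25a39 had the smallest rise and an erythroblast-only peak with an enrichment of 25.7 at its 5' end. With 5 genes this is a description, and a relation between peaks and rise was not tested.

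Listed neighbours of the 5 genes were counted by the same rule, which 71.5% of all genes did not pass in either direction. Within 200 kb there were 15 other listed genes, of which 1 rose and 0 fell, with a median log2 difference of 0.15. The one that rose, Hdac5, a histone deacetylase 199 kb from Slc25a39, had 1.02 and 3.95 on 1 listed exon. Nup133, whose nearest listed exon start is 5.31 kb from one of Abcb10, had 50.5 in progenitors and 33.7 in erythroblasts, and Taf5l, 14.9 kb away on the other side, had 47.5 and 36.02. Ddx47 and Fam234b beside Hebp1 had 22.3 and 24.9, and 10.6 and 16.7. The genes nearest to Slc25a39, Grn and Gpatch8, had 1.27 and 3.00, and 53.1 and 67.3. Slc25a37, Slc25a38, Abcb10 and Hebp1 had larger differences than each of their own listed neighbours. For Slc25a39 the order against Hdac5 turned with the pseudocount, from 1.35 against 1.29 at 1 to 1.37 against 1.85 at 0.1.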

How the data were processed

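The authors deposited a table of coding exons with 1 value per stage, named as RPKM. Its values are whole multiples of 1 step per column (100% within 0.01), so it is treated as a coverage signal that the authors scaled by 1 constant per column. The sources do not say whether the erythroblast column pools its 2 libraries. The authors' peak lists, pooled per stage per the file names, are in build mm9 per the submitters' processing notes. Their column 7 is read as a fold enrichment ratio and column 8 as -log10 p, from the deposited values. Aligner and peak caller: not given in the sources used here.

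RefSeq accessions were matched to symbols in the table of GRCm38.p6 (6772 of 6853 transcripts). For each gene the transcript with the most listed exons was summed. Of 5214 items 5194 had at least 1 in a column. For a reverse-strand gene the listed start is the exon's 3' end. Distances run from peak edge to the nearest listed exon start, since exon ends are not in the names. Peaks overlapping by at least 1 bp were called shared.

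The planned 2-fold rule replaced a test, with a pseudocount of 1, which understates changes of low genes. The members and lists were chosen with earlier results of these data known. Named genes were the 5 members, Slc25a28, up to 3 past the rule per list (1 of them is not reported here), the 2 nearest in difference per member, the nearest and strongest peaks, and neighbours. Of these, Slc25a40 and some list genes were not analysed here because no exon of theirs is in the table. Further peaks, R3hcc1, Rpsa, Rundc3a, Bloodlinc and Slc4a1 were named after their values were seen. The steps were tested on simulated data. Python 3.11.15, pandas 2.3.3, numpy 2.4.6 and matplotlib 3.10.9 were used.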

Additional observations from a re-analysis of the deposited data

How the results depend on the processing

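All 5 genes stayed at least 2-fold higher in erythroblasts with pseudocounts of 0.1 and 5, median-ratio scaling, scaling without globin items, quantile normalization, the median of exon ratios, all transcripts pooled and each listed exon left out in turn. The lowest log2 difference among these was 1.26 for Slc25a39, 2.79 for Slc25a38 and at least 4.06 for the other 3. With a 4-fold rule 4 rose. Of 112 counts over the pathway lists 103 stayed within 1.5 times, and the 9 others moved by 1 gene each, so small list counts are not firm. A move from 3 to 2 still counts as within 1.5 times. The iron uptake, storage and regulation genes that rose were 3 at first. They were 2 with a pseudocount of 5, median-ratio scaling, scaling without globin items or quantile normalization.

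Peak counts followed the window and the strictness. Progenitor, erythroblast and shared progenitor peaks near the 5 genes were 2, 10 and 2 within 5 kb, 5, 13 and 4 within 20 kb, 10, 17 and 7 within 50 kb, and 12, 26 and 9 within 100 kb. They were 6, 32 and 6 in the 50% of each list ranked higher, and 3, 29 and 2 at an enrichment of at least 10. Of the 5 genes 4 or 5 had more erythroblast than progenitor peaks under each of these. Leaving out a replicate was not run, since each stage has 1 column. No paired analysis was possible because the table has 1 column per stage and the labels number only the erythroblast RNA libraries. The depth is unknown, and low progenitor values limit the folds.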
